A study of Mus musculus with 4 samples.

Results

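The COUP-TF genes Nr2f1, Nr2f2 and Nr2f6 and the GCNF gene Nr6a1 were described in day-4.5 Rax::GFP- and Rax::GFP+ cells. The array carried 14 probe sets annotated to 1 of these 4 genes alone, out of 45101 probe sets in all. Nr2f2 had 6 of them, Nr6a1 had 5, Nr2f6 had 2 and Nr2f1 had 1. The cells came from mouse ESCs of a Rax::GFP reporter line, grown as floating aggregates in SFEBq culture (serum-free culture with quick reaggregation) and sorted by FACS at day 4.5. The GFP- cells are the presumptive caudal fraction, which holds every cell without reporter signal, and the GFP+ cells are the rostral fraction. Each group had 2 arrays of RNA pooled from many aggregates, which the methods call biological duplicates. Both groups came from 1 reporter line with the same culture and no added treatment.

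COUP-TF proteins are orphan nuclear receptors that bind repeats of the half-site AGGTCA and mostly repress transcription. Nr2f1 (COUP-TFI) and Nr2f2 (COUP-TFII) are known for areal patterning of the forebrain and for eye development, and both are induced by retinoic acid in cultured embryonal cells. Nr2f6 (EAR2) is a more widely expressed relative. Nr6a1 (GCNF) binds a direct repeat of the half-site without a spacer and is known for silencing Pou5f1, which encodes Oct3/4, as pluripotent cells differentiate.

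Nr2f1 and Nr2f2 were much lower in GFP- cells, Nr2f6 was lower by a smaller amount, and the values of Nr6a1 lay close together in both groups. Of the 14 probe sets, 8 passed an adjusted p of 0.05 in limma, against 7.47% of all probe sets. All 8 were lower in GFP- cells, a direction taken by 3.82% of all probe sets, with 3.64% higher. The groups did not overlap at 11 of the 14 (10 lower and 1 higher in GFP- cells), against 57.3% of all probe sets (24.9% lower and 32.5% higher). These genes were selected on the GFP- minus GFP+ differences of these same arrays, so the counts and the differences that follow are a description and carry no test. In bulk RNA, fewer cells that express a gene and less RNA per cell cannot be told apart. Values are log2 RMA values, and differences are log2 values of GFP- minus GFP+ with the standard error (SE) of the fit over all probe sets.

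The RefSeq promoters (GRCm38.p6, 250 bases before to 50 after the start) of 3 genes are shown because Nr2f1 and Nr2f2 were lower and Pou5f1 was higher in GFP- cells. Capitals mark exact copies of AGGTCA on either strand, and inexact half-sites, or repeats that hold them, were not searched. Nr2f1 and Pou5f1 each have a second, internal RefSeq start, and the outermost is shown. The Nr2f1 window lies at chr13:78198824-78199123 on the minus strand, the Nr2f2 window at chr7:70366697-70366996 on the minus strand and the Pou5f1 window at chr17:35505782-35506081 on the plus strand.
Nr2f1: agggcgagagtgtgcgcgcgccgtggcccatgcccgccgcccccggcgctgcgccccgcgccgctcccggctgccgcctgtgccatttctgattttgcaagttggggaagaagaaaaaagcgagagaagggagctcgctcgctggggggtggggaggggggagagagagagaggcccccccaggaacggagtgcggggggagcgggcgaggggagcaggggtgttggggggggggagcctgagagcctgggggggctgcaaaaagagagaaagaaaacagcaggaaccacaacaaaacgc
Nr2f2: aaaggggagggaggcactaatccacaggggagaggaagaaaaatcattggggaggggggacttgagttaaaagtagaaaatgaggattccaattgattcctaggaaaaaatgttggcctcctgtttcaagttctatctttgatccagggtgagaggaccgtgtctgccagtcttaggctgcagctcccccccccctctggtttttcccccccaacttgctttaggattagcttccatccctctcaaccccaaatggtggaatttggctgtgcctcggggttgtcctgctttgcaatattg
Pou5f1: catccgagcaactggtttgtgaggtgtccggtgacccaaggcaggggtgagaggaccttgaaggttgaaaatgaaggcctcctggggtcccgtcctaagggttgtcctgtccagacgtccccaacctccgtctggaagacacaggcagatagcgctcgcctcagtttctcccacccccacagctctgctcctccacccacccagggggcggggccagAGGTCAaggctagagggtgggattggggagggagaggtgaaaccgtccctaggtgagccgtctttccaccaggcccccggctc
The half-site AGGTCA was found once in the Pou5f1 window, beginning at position -33 from the start, and in neither of the other printed windows, nor at the internal start of Nr2f1 or Pou5f1. The only window of Nr2f6 (not printed) lies at an internal start, unlike the printed ones, and did not hold it. Of the 2 RefSeq starts of Nr6a1, only the internal one had it, as TGACCT at positions -91 and -45. Of 32851 promoter windows in the table, 16.3% held it on either strand. The Nr2f1 and Nr2f2 windows differed in composition, with 68.0% G and C and 23 CpG in Nr2f1 against 49.7% and 2 CpG in Nr2f2. The GC box GGGCGG, searched on both strands and held by 35.7% of all windows, was found once in the Nr2f1 window, once in that of Pou5f1, 7 times in that of Nr2f6 and not in that of Nr2f2 or in either of Nr6a1.

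**Figure D1:**
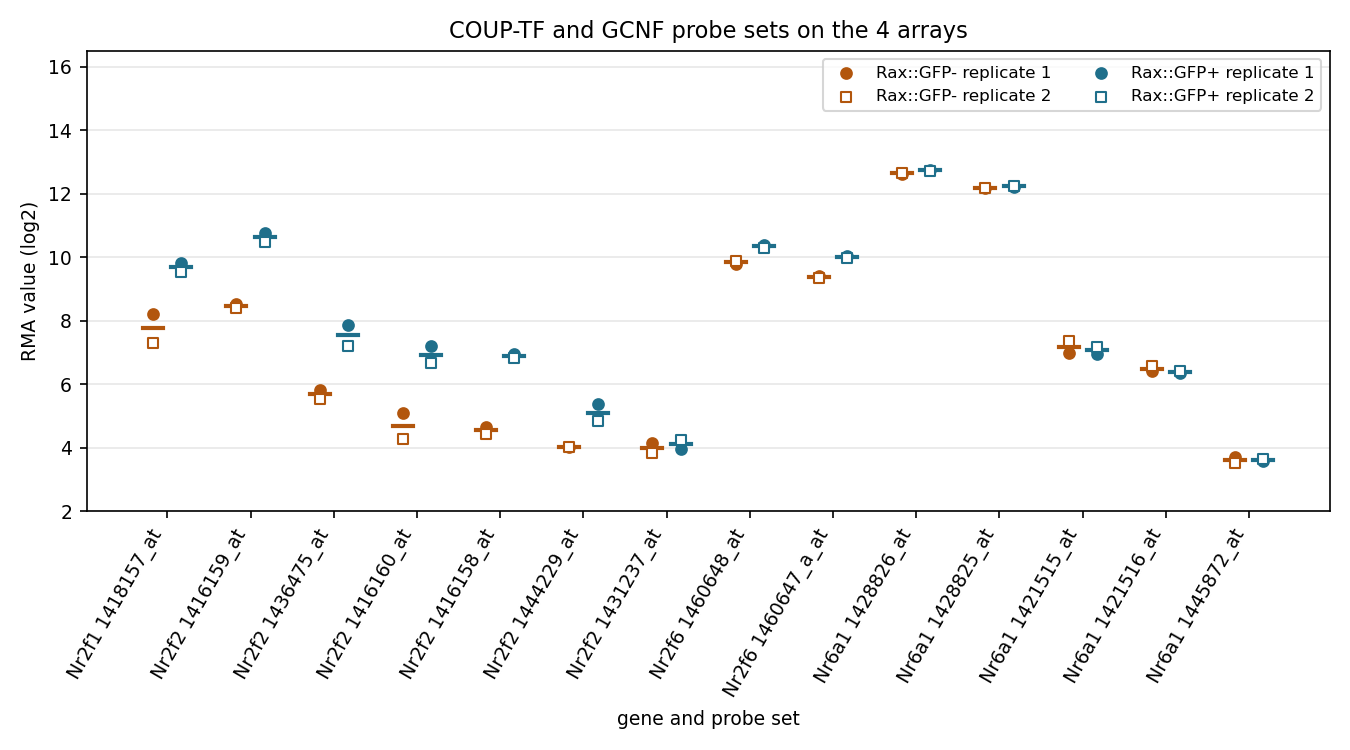
RMA value (log2, y axis) of the 14 COUP-TF and GCNF probe sets (x axis) on the 2 GFP- and 2 GFP+ arrays, with circles for replicate 1, squares for replicate 2 and bars for group means. Heights of different probe sets are not comparable, and within probe sets the GFP- values of Nr2f1 (8.23 and 7.31) lay below the GFP+ values (9.83 and 9.53), while those of the brightest Nr6a1 probe set lay between 12.63 and 12.76 in both groups.

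Nr2f1 had 1 probe set, 1418157_at. It was at 8.23 and 7.31 in GFP- cells, against 9.83 and 9.53 in GFP+ cells, with means of 7.77 ± 0.65 and 9.68 ± 0.21 (SD, n = 2 each). Both GFP- arrays lay below both GFP+ arrays. The difference was -1.92 (SE 0.33, 95% interval -2.79 to -1.04), a level 3.77-fold lower in GFP- cells. The GFP- arrays were 0.92 apart, a gap larger than those of 99.9% of all probe sets between these arrays. With 1 GFP- array left out, the difference was -2.38 without replicate 1 and -1.45 without replicate 2. Of 18194 genes, each by its most expressed probe set, 18 had a larger fall in GFP- cells than Nr2f1.

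At Nr2f2, 5 of 6 probe sets were lower in GFP- cells with no overlap of the groups. The most expressed, 1416159_at, was at 8.54 and 8.40 in GFP- cells, against 10.78 and 10.48 in GFP+ cells. Its difference was -2.17 (SE 0.13, 95% interval -2.51 to -1.83), a level 4.49-fold lower in GFP- cells. A larger fall was seen for 8 genes by their most expressed probe sets, and for 63 probe sets among all on the array. Probe set 1416158_at was at 4.66 and 4.45 in GFP- cells, against 6.97 and 6.84 in GFP+ cells, and differed by -2.35 (SE 0.11). This was the largest of the 14 differences, 5.10-fold in size, and the group means stood at the 29.6th percentile of the arrays in GFP- cells and the 62.1st in GFP+ cells.

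The other probe sets of Nr2f2 spread more. Probe set 1416160_at was at 5.09 and 4.27 in GFP- cells, against 7.21 and 6.67 in GFP+ cells, and differed by -2.26 (SE 0.33). Probe set 1436475_at was at 5.83 and 5.54 in GFP- cells, against 7.88 and 7.21 in GFP+ cells, and differed by -1.86 (SE 0.25). Both had groups that did not overlap, although the arrays of a group were up to 0.81 apart. Probe set 1444229_at was at 4.03 and 4.03 in GFP- cells, against 5.37 and 4.84 in GFP+ cells. Its difference of -1.08 (SE 0.19) was the smallest in size of the 5, and its GFP- mean stood at the 20.9th percentile of the arrays.

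The sixth probe set of Nr2f2, 1431237_at, did not separate the groups. It was at 4.17 and 3.85 in GFP- cells, against 3.97 and 4.25 in GFP+ cells. The difference was -0.10 (95% interval -0.52 to 0.31), and the group means stood at the 20.6th percentile of the arrays in GFP- cells and the 22.7th in GFP+ cells. Across the 6 probe sets the differences ran from -2.35 to -0.10, with a median of -2.01.

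Nr2f6 was lower in GFP- cells at both of its probe sets, by less than Nr2f1 and the 5 Nr2f2 probe sets. Probe set 1460648_at was at 9.80 and 9.87 in GFP- cells, against 10.40 and 10.29 in GFP+ cells, and differed by -0.51 (SE 0.08, 95% interval -0.72 to -0.29). Probe set 1460647_a_at was at 9.40 and 9.36 in GFP- cells, against 10.03 and 9.98 in GFP+ cells, and differed by -0.62 (SE 0.07, 95% interval -0.82 to -0.43). The folds were 1.42 and 1.54 in size. The arrays of each group were at most 0.11 apart at these probe sets, and 537 genes had a larger fall than the more expressed one.

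The 5 probe sets of Nr6a1 had differences between -0.10 and 0.11. The most expressed, 1428826_at, was at 12.63 and 12.65 in GFP- cells, against 12.76 and 12.71 in GFP+ cells, and differed by -0.10 (95% interval -0.29 to 0.09). Probe set 1428825_at was at 12.18 and 12.17 in GFP- cells, against 12.22 and 12.25 in GFP+ cells, and differed by -0.06 (95% interval -0.24 to 0.13). The groups did not overlap at either, but the gaps were small, and both stood above the 97th percentile of the arrays. Of the 18194 genes, 7198 had a smaller difference in size than Nr6a1.

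The 3 dimmer Nr6a1 probe sets had small positive differences. Probe set 1421516_at was at 6.42 and 6.57 in GFP- cells, against 6.36 and 6.41 in GFP+ cells, and differed by 0.11 (95% interval -0.12 to 0.34), with groups that did not overlap. Probe set 1421515_at was at 6.98 and 7.35 in GFP- cells, against 6.97 and 7.19 in GFP+ cells, and differed by 0.09 (95% interval -0.33 to 0.51). Probe set 1445872_at was at 3.72 and 3.53 in GFP- cells, against 3.59 and 3.65 in GFP+ cells, with a difference of 0.01. The groups overlapped at both of the last. The intervals of all 5 leave room for a difference of up to 0.51 in size, and 0.29 at the brightest pair.

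**Figure D2:**
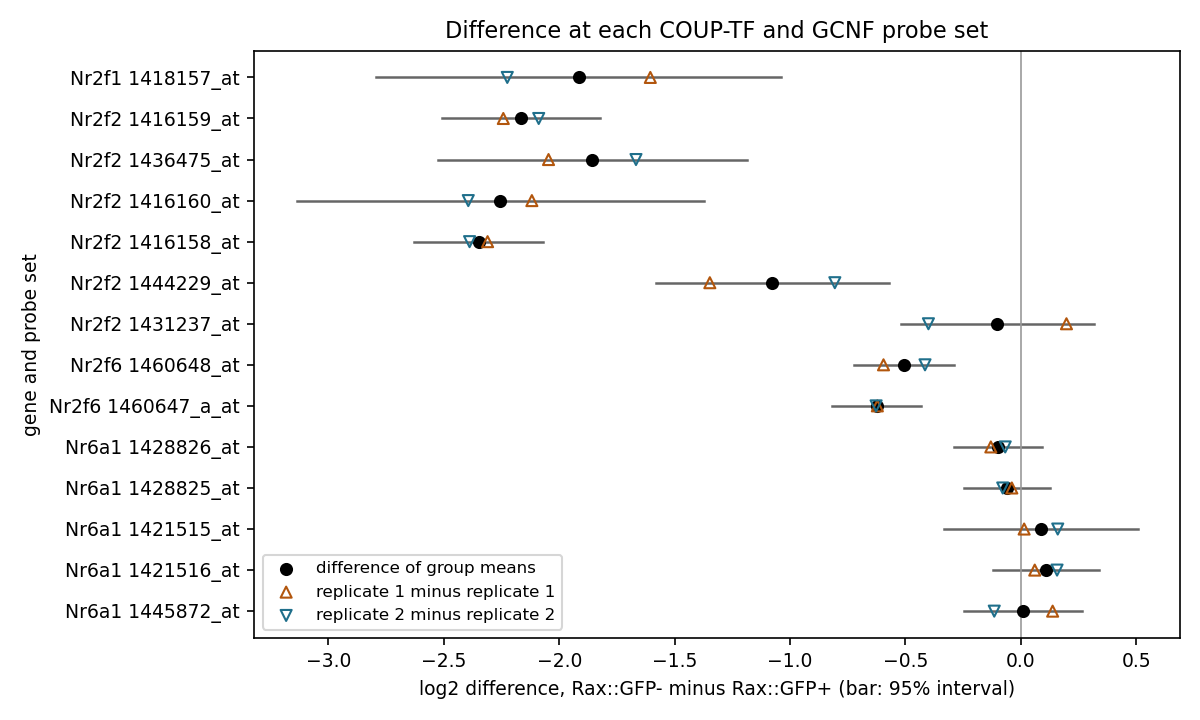
GFP- minus GFP+ values on the log2 scale (x axis) at each of the 14 probe sets (y axis). Black points are differences of group means with 95% intervals from the fit over all probe sets, and triangles are the differences between arrays of the same replicate number. The Nr2f1 and 5 of the Nr2f2 intervals reach no higher than -0.57, those of Nr2f6 lie between -0.82 and -0.29, and those of Nr6a1 span 0.

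The genes with array profiles most like those of the members were sought among 18194 genes, by the Euclidean distance over the 4 arrays after subtracting the mean of each probe set. For Nr2f2 they were Phlda1 (distance 0.0697), Prss23 (0.128), Prdm16 (0.189), Pcsk5 (0.208) and Col1a2 (0.325). Phlda1 was at 8.62 and 8.45 in GFP- cells, against 10.89 and 10.51 in GFP+ cells. For Nr2f1 they were Calcrl (0.226), Abtb2 (0.257), Sox5 (0.273), Peg12 (0.318) and Slc8a3 (0.436). Calcrl, which encodes a receptor of the calcitonin receptor family, was at 5.78 and 5.16 in GFP- cells, against 7.51 and 7.15 in GFP+ cells. For Nr6a1 they were Timm21, Snhg1, Clk3, Tmem250-ps and Tubg1, at distances of 0.0101 to 0.0125. A distance under 0.3 from Nr6a1 was shared by 11146 genes, against 4 for Nr2f2 and 3 for Nr2f1, so the Nr6a1 profile was a common one. These distances describe 4 arrays of 2 groups.

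Of the 40 other nuclear receptors measured (45 listed), 5 passed as higher in GFP- cells and 1 as lower. Over all genes 8.02% passed, 5.4% higher and 2.63% lower. The list median was 0.13, against 0.05 for all genes. Nr0b1 (DAX1), an atypical receptor of the ESC network, was at 6.15 and 6.86 in GFP- cells, against 4.12 and 4.39 in GFP+ cells, and differed by 2.24 (SE 0.26, limma adjusted p = 0.0218). The retinoid X receptor gene Rxrg was at 7.00 and 7.05 in GFP- cells, against 5.83 and 5.99 in GFP+ cells, and differed by 1.11 (limma adjusted p = 0.0112). Both had groups that did not overlap.

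Pgr, the progesterone receptor gene, was at 6.98 and 7.09 in GFP- cells, against 6.07 and 5.87 in GFP+ cells, a log2 change of 1.07 (limma adjusted p = 0.0147) that held at 1 of its 3 probe sets. Nr1d2, a circadian repressor, had 0.68 (adjusted p = 0.0265), at 1 of 2. Rarg, a retinoic acid receptor gene, was also higher (0.45, adjusted p = 0.0403), at 1 of 2 probe sets, the other having 0.46 (adjusted p = 0.241). Nr2e1 (TLX), a transcriptional repressor that acts in neural stem cells, was the 1 that was lower (-0.46, adjusted p = 0.0391). This call too held at 1 of 2, the other having -0.79 (adjusted p = 0.0784). At the probe set that passed, Nr2e1 was dim in both groups, at 3.77 and 3.80 in GFP- cells, against 4.22 and 4.27 in GFP+ cells. Rarg and Nr2e1 are named after their values were seen. The well expressed Nr2c2 (TR4) and Rxrb did not pass, with differences of -0.23 (adjusted p = 0.153) and 0.04 (adjusted p = 0.790), although 2 of the 6 probe sets of Nr2c2 were lower in GFP- cells, with differences of -0.93 and -1.98 (adjusted p = 0.0270 and 0.0153). Without GFP+ replicate 1 only Rxrg and Pgr passed, without GFP+ replicate 2 Rarg, Nr1d2 and Nr2e1 did not, and without either GFP- array no probe set of any gene passed (7704 and 7697 at an unadjusted p under 0.05).

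The choice of probe set mattered for these receptors. Counting any probe set, 10 of the 40 genes had 1 or more that were higher and 3 had 1 or more that were lower. Of their 101 probe sets, 11 were higher and 4 were lower, against 3.64% and 3.82% of all probe sets. Genes with more probe sets have more chances in such a count. The 10 include Nr5a2 and Esrrb, receptors of the pluripotency network, which did not pass at their most expressed probe sets and are named after their values were seen. At a less expressed probe set, Esrrb was at 6.80 and 7.14 in GFP- cells, against 5.37 and 5.34 in GFP+ cells, a log2 change of 1.61 (limma adjusted p = 0.0116). At its most expressed, it differed by 0.26 (adjusted p = 0.126). Nr5a2 differed by 1.53 (adjusted p = 0.00976) and 1.70 (adjusted p = 0.0181) at 2 of its 4 probe sets and by 0.41 (adjusted p = 0.102) at the most expressed.

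**Figure D3:**
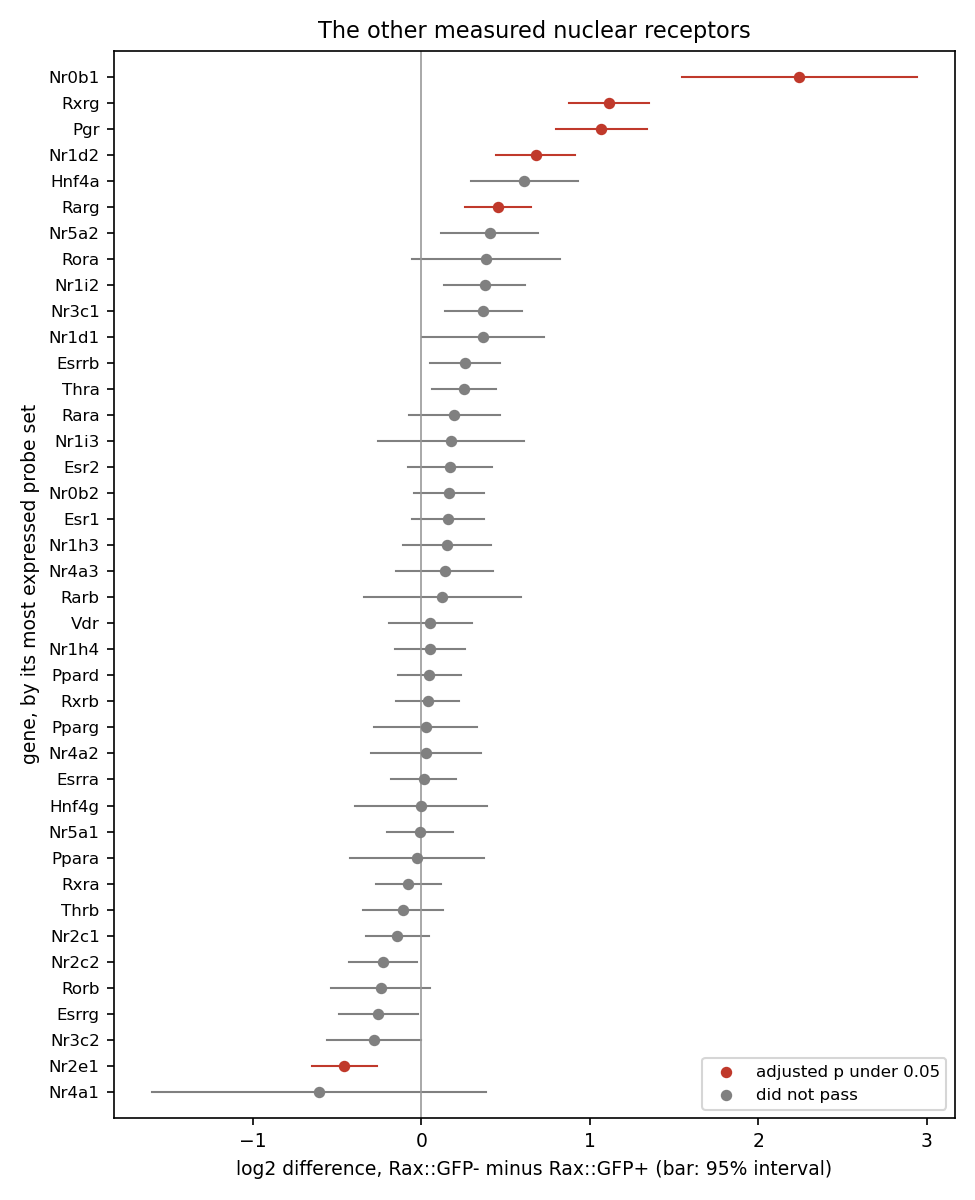
GFP- minus GFP+ values on the log2 scale (x axis) for the 40 other measured nuclear receptors (y axis), taken at the most expressed probe set. Points are differences and lines 95% intervals, red where the adjusted p is under 0.05, from Nr0b1 at 2.24 down to Nr4a1 at -0.61, which did not pass.

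Of 7 genes reported in the literature as direct targets of GCNF, Pou5f1, Nanog and Tdgf1 were higher in GFP- cells, and the other 4 did not pass. Pou5f1 was at 11.34 and 11.42 in GFP- cells, against 8.73 and 8.68 in GFP+ cells, and differed by 2.67 (SE 0.08, limma adjusted p = 0.0044). Nanog, a pluripotency factor, was at 9.58 and 9.34 in GFP- cells, against 6.23 and 5.66 in GFP+ cells (difference 3.51, adjusted p = 0.00761). Tdgf1, a Nodal co-receptor, was at 8.13 and 7.71 in GFP- cells, against 4.87 and 4.76 in GFP+ cells (3.10, adjusted p = 0.00638). These 3 are also pluripotency genes, and the brightest Nr6a1 probe set differed by -0.10 between the same arrays. The arrays measure RNA and not GCNF protein or its binding, and any part of GCNF in these differences was not tested.

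The germ cell genes of this list did not pass. Gdf9 and Bmp15, growth factors of the oocyte, had differences of 0.14 (limma adjusted p = 0.310) and -0.29 (adjusted p = 0.233). The protamine genes Prm1 and Prm2 had 0.02 (adjusted p = 0.886) and 0.23 (adjusted p = 0.262). The list median was 0.23.

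Of 10 measured partner proteins (12 listed), the DNA methyltransferase genes Dnmt3a and Dnmt3b, whose products GCNF is known to recruit, were higher in GFP- cells, and the other 8 did not pass at their most expressed probe sets. Dnmt3b was at 13.61 and 13.63 in GFP- cells, against 12.70 and 12.80 in GFP+ cells (difference 0.87, SE 0.08, limma adjusted p = 0.0126). Dnmt3a was at 10.77 and 10.94 in GFP- cells, against 10.11 and 10.12 in GFP+ cells (0.74, adjusted p = 0.0230). Without GFP+ replicate 1 neither passed, and without GFP+ replicate 2 Dnmt3a did not. Uimc1, which encodes a GCNF-binding protein, and Mbd3 did not pass (0.14 and 0.02, adjusted p = 0.334 and 0.902). The COUP-TF-interacting proteins are encoded by Bcl11a and Bcl11b. Bcl11a had a difference of 0.24 (adjusted p = 0.258) at its most expressed probe set, but 4 of its 7 probe sets were higher in GFP- cells, by 1.13 to 2.68 (adjusted p = 0.00639 to 0.0439). At the brightest of these 4 it was at 7.28 and 7.39 in GFP- cells, against 4.65 and 5.06 in GFP+ cells. Bcl11b had 0.54 (adjusted p = 0.0517) at its most expressed probe set and was higher at 1 of 4, by 1.33 (adjusted p = 0.0203). Zfpm1 had 0.15 (adjusted p = 0.313) at its most expressed probe set and passed at the other of its 2, which is not described here. Bcl11a, Bcl11b and Zfpm1 are named after their values were seen. The median over the list was 0.24.

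**Figure D4:**
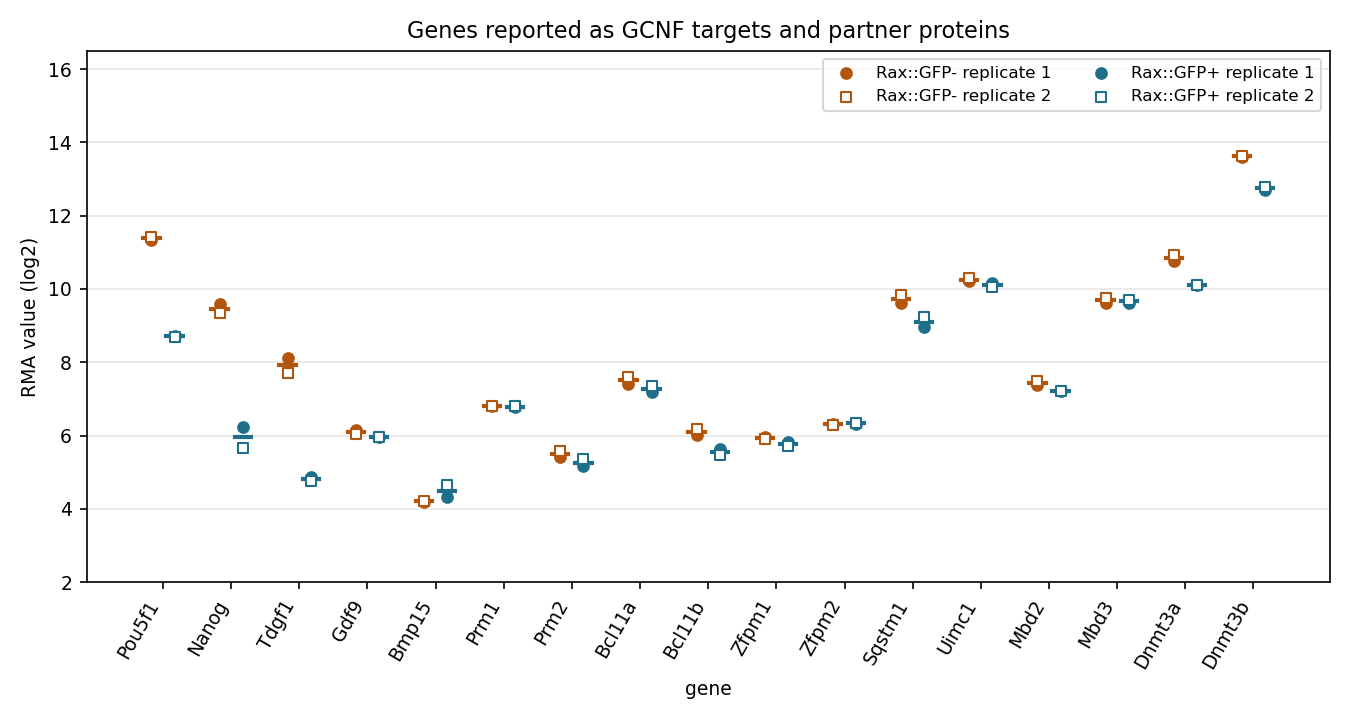
RMA value (log2, y axis) of genes reported as GCNF targets and of COUP-TF and GCNF partner proteins (x axis), taken at the most expressed probe set, on the 2 GFP- and 2 GFP+ arrays, with bars for group means. Pou5f1, Nanog, Tdgf1, Dnmt3a and Dnmt3b have GFP- values above GFP+ values and passed limma.

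Retinoic acid metabolism showed calls in both directions. Of 10 measured genes (12 listed), Aldh1a2, which makes retinoic acid, was lower and Cyp26a1, which degrades it, was higher in GFP- cells. Aldh1a2 was at 6.06 and 5.98 in GFP- cells, against 8.84 and 8.71 in GFP+ cells (difference -2.76, limma adjusted p = 0.00507). Cyp26a1 was at 8.13 and 7.87 in GFP- cells, against 5.85 and 5.78 in GFP+ cells (2.18, adjusted p = 0.00638). Crabp2, a retinoic acid binding protein, and Rdh10, a retinol dehydrogenase, did not pass (-0.38 and -0.22, adjusted p = 0.0518 and 0.218). The median over the list was -0.02.

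Among forebrain and optic patterning genes, Lhx2, Pax6 and Vax1 were lower in GFP- cells and the other 4 did not pass, of 7 measured (10 listed). Pax6 was at 9.47 and 9.26 in GFP- cells, against 10.91 and 10.70 in GFP+ cells (difference -1.45, limma adjusted p = 0.0117), a call shared by 2 of its 5 probe sets. Lhx2 differed by -1.80 (adjusted p = 0.00551) and Vax1 by -1.01 (adjusted p = 0.0109), at 1 of its 2 probe sets. Otx2 and Sp8 did not pass, at -0.06 (adjusted p = 0.700) and -0.14 (adjusted p = 0.845). The median over the list was -0.14.

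Markers of the sorted regions and of other cells were compared between the same arrays, and some lists differed between the groups while others did not. Rax, the gene of the reporter, was lower in GFP- cells (-2.05), the direction set by the sort itself. The rostral gene Six3 was also lower (-0.85, limma adjusted p = 0.0389), and the caudal gene Irx3 was higher (2.59, adjusted p = 0.0175). The Six3 call held at 1 of 3 probe sets, the others having -0.79 (adjusted p = 0.112) and -0.07 (adjusted p = 0.658). Of 9 measured pluripotent cell markers 8 were higher in GFP- cells, where the list averaged 9.63 and 9.59, against 7.16 and 7.06 in GFP+ cells. Of 10 endoderm markers 6 were higher, with averages of 7.26 and 7.29 in GFP- cells, against 5.50 and 5.87 in GFP+ cells. Of 10 early neural markers 5 were lower and 1 was higher, with averages of 9.17 and 8.99 in GFP- cells, against 9.48 and 9.33 in GFP+ cells. Some lists share genes, so their counts are not separate. Pou5f1, Nanog and Tdgf1 are both pluripotent cell markers and GCNF targets here, and Pax6 is on the early neural and forebrain lists. Of 10 neural crest markers 2 were higher and 1 was lower. Of 10 mesoderm and endothelial markers, which mark cells in which Nr2f2 is also known to be expressed, 0 passed limma (3 at an unadjusted p under 0.05), and the list averaged 5.01 and 4.88 in GFP- cells, against 4.63 and 4.74 in GFP+ cells. The part of any of these cells in the differences of Nr2f1, Nr2f2 and Nr2f6 was not tested.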

How the data were processed

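The authors hybridized RNA of sorted cells to GeneChip mouse genome arrays and deposited RMA values, 1 for each probe set on each array, on the log2 scale. RMA corrects the background and gives the arrays a common distribution, and R 2.13.0 is named in the notes the submitters gave on processing. A difference in total RNA between groups cannot be seen in such values, array medians ran from 5.84 to 5.89, and 2 arrays a group limit the precision (2 against 2 cannot give an exact permutation p below 0.333).

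From these log2 values, each of 45101 probe sets was fitted as 2 groups with limma 3.58.1 in R 4.3.3, without a replicate block or filter, and p-values were adjusted by Benjamini-Hochberg over all probe sets at 0.05. Residual degrees of freedom were 2, with 2.52 from the prior, and the fit was tested on simulated data. The platform annotation named the genes (34958 probe sets with 1 symbol, 932 with several, 9211 unnamed here), and the most expressed probe set stood for each gene. Of 135 listed genes, 122 were measured, and the others were not analysed here.

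Members, gene lists and tests were chosen with earlier results of these data known. Named were all member probe sets, of each pathway list the genes that passed with the greatest change (4 at most), the brightest that did not pass (2 at most), the 5 nearest profiles, and all measured GCNF targets. The alternatives were the replicate block, Storey's q-value (lambda of 0.5), a filter (log2 of at least 5 on 2 arrays), centring arrays on their medians, quantile normalization, an intensity trend, the mean of the probe sets of a gene, and leaving out each array. With 1 array left out, 1 residual degree of freedom remains and the residual spread comes from the other group alone. A call lost there can thus reflect the weaker fit as well as the array left out.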

Additional observations from a re-analysis of the deposited data

How the results depend on the processing

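The differences of the 14 member probe sets kept their sign at 11 of 14 under the 7 settings tried for them. The exceptions were 1431237_at of Nr2f2 and 1421515_at and 1445872_at of Nr6a1, all with overlapping groups. Where the groups do not overlap, as at those 11, leaving out 1 array cannot change the sign. The replicate block leaves every difference as it was. For the 11, only median centring and quantile normalization could thus have changed a sign. The 8 member calls were kept under median centring, quantile normalization, the intensity trend and Storey's q-value; 7 remained of 11 tested under the filter, 2 without GFP+ replicate 1 (both of Nr2f2), 5 without GFP+ replicate 2 and 0 under the replicate block or without either GFP- array, where 8 had an unadjusted p under 0.05 from limma. Nr2f1 was among those that did not pass with any 1 array left out.

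Over all probe sets 3367 passed, 6163 with Storey's q-value, 6962 with the intensity trend and 0 to 2978 with 1 array left out (820 without GFP+ replicate 1). The count of other nuclear receptors past the threshold was 6, against 10 with the mean of all probe sets and 0 to 5 with 1 array left out. Partner proteins numbered 2, against 4 with Storey's q-value, 4 with the trend, 5 with the mean and 0 to 1 with 1 array left out. Retinoic acid genes numbered 2, against 4 under each of those 3 settings and 0 to 3 with 1 array left out. GCNF targets and forebrain genes stood at 3 each, against 0 to 3 with 1 array left out, where the 0 came without either GFP- array. The lone lower receptor, Nr2e1, was too dim for the filter. So was 1444229_at of Nr2f2 (5.37 and 4.84 in GFP+ cells), whose call was left untested there and did not fail. The filter counts arrays of either group, so a probe set bright in GFP+ cells alone is kept. At Nr2f2, 1416158_at (4.66 and 4.45 in GFP- cells) and 1416160_at (5.09 and 4.27) reached 5 on both arrays in GFP+ cells only. Their calls under the filter are thus no separate check on those differences.

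With the replicate block 0 probe sets passed limma, on 1 residual degree of freedom, and so 0 of each list (11019 had an unadjusted p under 0.05). Over all probe sets same-numbered arrays did not deviate together (correlation -0.05), and nothing in the labels says that a number marks a shared experiment. Of the 9 Nr2f probe sets, 7 in GFP- cells and 8 in GFP+ cells were higher on replicate 1 than on replicate 2. These probe sets share their arrays and several measure the same gene, so they are not separate observations. The share over all probe sets was not counted. After centring, 1980 probe sets were higher and 1612 lower in GFP- cells, against 1642 and 1725.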
